A study of Mus musculus with 15 samples.

Results

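Marks of active and poised chromatin were examined at 6 genes for secreted fibroblast growth factor (FGF) ligands, Fgf10, Fgf3, Fgf4, Fgf15, Fgf8 and Fgf17, in lists of broad H3K27ac and H3K4me1 peaks from mouse pluripotent stem cells. They were 6 of 22350 protein-coding genes of the GENCODE M1 annotation on the mouse build mm9. The genes were selected on the H3K27ac values of these same lists, with earlier results known: H3K27ac at Fgf10 lay mainly in embryonic stem cells (ESCs), and the other 5 ligands stood as its contrast. Each gene was represented by its annotated span widened by 20 kb on each side, and the bases under peaks within that window were counted. All values are therefore descriptions without a test.

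ChIP-seq of H3K4me1, the histone methylation that marks enhancers whether active or poised, and of H3K27ac, the acetylation that sets active elements apart, was performed in 2 samples per mark and cell state with 1 input sample per state, 15 samples in all. All 3 states were of the strain 129SV and of a single line, the J1 ESC line, and both kinds of expanded potential stem cells (EPSCs) were derived from it by conversion in culture. ESCs were kept in serum medium (15% FBS) with LIF at 1000 units per mL, the GSK3 inhibitor CHIR99021 (3 µM) and the MEK inhibitor PD0325901 (1 µM), on mouse fibroblast feeder cells or on gelatin. D-EPSCs were kept in N2B27 with 5% serum replacement (KSR) and the same LIF and CHIR99021, together with dimethindene maleate (2 µM) and minocycline hydrochloride (2 µM), and without PD0325901. L-EPSCs were kept in DMEM/F12 with 20% KSR and the same LIF, CHIR99021 and PD0325901, together with A-419259 (0.3 µM), XAV939 (5 µM), JNK inhibitor VIII (4 µM) and SB203580 (10 µM). Both EPSCs had been grown without feeder cells before the experiment. The basal medium, serum and several inhibitors differed at once between the states, so their parts in a difference cannot be told apart.

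FGF ligands bind receptor tyrosine kinases, and the signal runs through RAS, RAF, MEK and ERK to the transcription factors of the ETS family, while Sprouty, Spred and dual-specificity phosphatase proteins damp it. PD0325901, present for ESCs and L-EPSCs and absent for D-EPSCs, blocks MEK in that cascade. In the early mouse embryo FGF4 is made by epiblast cells and acts on their neighbours, and in cultured ESCs the same ligand drives the exit from the undifferentiated state.

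Of the values deposited, 6 peak lists were analysed, 1 per mark and state. A list gives peak positions alone, so the samples of a group cannot be separated, no value has a replicate error, and read depth is unknown. The H3K27ac list was longest in ESCs, with 64342 peaks over 107.4 Mb, against 32782 peaks over 44.4 Mb in D-EPSCs and 26966 peaks over 34.3 Mb in L-EPSCs. The H3K4me1 lists were closer to each other, with 102751 to 107222 peaks over 173.1 to 221.1 Mb. The share of all genes that met the same criterion is therefore given beside counts of ligands wherever it was counted. The labelled cell type was checked at 4 pluripotency genes, Pou5f1, Sox2, Nanog and Esrrb, which were picked after the ligand values were known: all 4 carried H3K27ac in every state, between 13.3 and 62.1 kb.

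All 6 ligands had fewer H3K27ac bases in both EPSCs than in ESCs, with the fewest left at Fgf10. In ESCs, H3K27ac covered between 5.65 kb at Fgf8 and 31.3 kb at Fgf4, with a median of 20.4 kb over the 6 genes against 2.02 kb over all protein-coding genes. The Fgf10 window is 162.3 kb long, while those of the other 5 ligands are 43.9 to 46.4 kb. H3K27ac in ESCs covered 15.0% of the Fgf10 window, against 12.3% at Fgf8 to 71.3% at Fgf4. H3K4me1 in ESCs covered 13.5% of it, against 42.1% to 68.4% at the other 5. In D-EPSCs the lowest value was 1.38 kb at Fgf10, the median was 6.69 kb and the highest was 19.4 kb at Fgf4, against 0.893 kb over all genes. In L-EPSCs Fgf10 had no H3K27ac peak listed, the median was 3.04 kb and Fgf4 was again highest at 16.2 kb, against 0.404 kb over all genes. Fewer H3K27ac bases than in ESCs were also found at 83.1% of all genes with any in either state for D-EPSCs and at 91.5% for L-EPSCs, so the shared direction of the 6 ligands is that of most genes.

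A gene was called lower when it had at least 2-fold fewer bases than ESCs, with at least 1 kb in either state. By this rule 4 of the 6 ligands were lower in H3K27ac in D-EPSCs (61.6% of all genes), 5 in L-EPSCs (79.6%) and 4 in both (57.5%). The 4 were Fgf10, Fgf8, Fgf15 and Fgf3, and these are values of the contrast the genes were selected on. When each H3K27ac list was reduced to its widest peaks with equal covered bases, which left ESCs with peaks of 5131 bp and more, Fgf10 alone remained lower in both (10.1% of all genes). Fewer H3K4me1 bases than in ESCs were found at 5 of the 6 ligands in D-EPSCs (59.3% of all genes), with Fgf17 the exception, and at all 6 in L-EPSCs (66.7%). Fgf10 alone was at least 2-fold lower, 1 of 6 ligands in D-EPSCs (4.52% of all genes), in L-EPSCs (9.12%) and in both (2.38%).

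**Figure D1:**
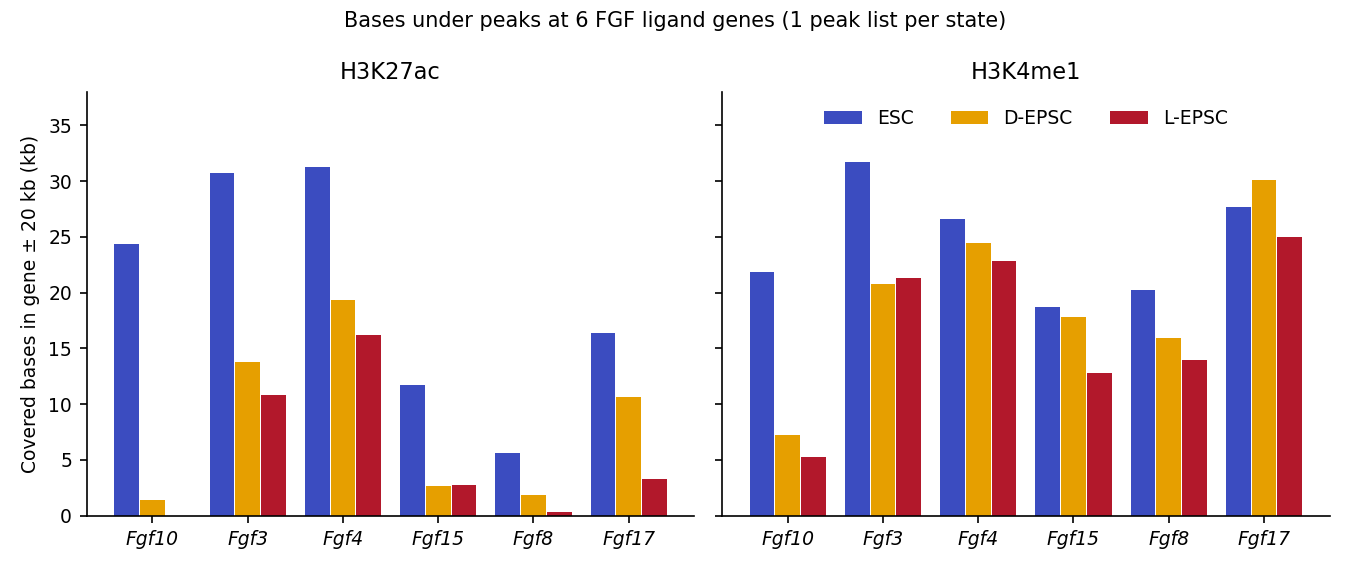
Bases under H3K27ac peaks (left) and H3K4me1 peaks (right), in kb, within the span of each of 6 FGF ligand genes widened by 20 kb on each side, with 1 bar per cell state and no error bars, since each bar is 1 peak list. At Fgf10 the H3K27ac bars stand at 24.4 kb for ESCs, 1.38 kb for D-EPSCs and 0 for L-EPSCs, while Fgf4 keeps 19.4 kb and 16.2 kb, and the H3K4me1 bars of the other 5 ligands lie between 12.8 and 31.7 kb. Bars are not scaled to window length, which is 162.3 kb at Fgf10 and 43.9 to 46.4 kb at the others.

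Fgf10 (ENSMUSG00000021732.8) encodes a ligand that mesenchyme sends to overlying epithelium and that limb and lung buds need. The annotated gene spans chr13:119458598-119580922 on the plus strand. That span opens with noncoding transcripts, and the protein-coding transcript starts 44.9 kb further downstream, at base 119503506. Distances below are counted from that coding start. No other protein-coding gene lies within the 162.3 kb window, so peaks there are not shared with a coding neighbour. The promoter of the coding transcript, the 250 bases before its start, lies at chr13:119503256-119503505 and is shown because the widest acetylated peak of the locus stops just short of it. CpG dinucleotides are in capitals, here and in the sequences further on, which were all read from the NCBIM37 genome (mm9).
Fgf10 promoter: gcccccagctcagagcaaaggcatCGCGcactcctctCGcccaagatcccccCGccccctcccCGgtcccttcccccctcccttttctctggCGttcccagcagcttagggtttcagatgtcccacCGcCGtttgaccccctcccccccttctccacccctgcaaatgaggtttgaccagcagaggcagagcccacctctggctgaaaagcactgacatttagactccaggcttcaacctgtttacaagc
It holds 8 CpG, which is also the median over 22345 promoters of the same length at annotated gene starts, and has a GC content of 61.2% against a median of 54%.

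In ESCs, Fgf10 carried 8 H3K27ac peaks over 24.4 kb. The widest, of 11483 bp at chr13:119491691-119503173, lay between the noncoding and the coding start and ended 333 bp before the coding start. Of the other 7 peaks, 1 of 866 bp lay 56.1 kb upstream of the coding start, outside the annotated gene. The remaining 6 all lay in the first intron of the coding transcript, with widths of 217 bp, 1107 bp, 1881 bp, 2395 bp, 5937 bp and 497 bp from the coding start outwards. No H3K27ac peak of any state covered an exon of the coding transcript.

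In D-EPSCs the 8 peaks were represented by 1. This peak of 1378 bp lay in the first intron, within the bounds of the 5937 bp ESC peak, and covered 23.2% of it. The 11483 bp peak before the coding start had no counterpart in either EPSC: that stretch of 44.9 kb between the noncoding and the coding start held 11.5 kb of H3K27ac in ESCs and 0 in both EPSCs. In L-EPSCs the nearest H3K27ac peak lay 327.5 kb upstream of the coding start, outside the window. Because the acetylated bases lie this far from the annotated start, a window of 20 kb on each side of that start held 0.866 kb in ESCs and none in the EPSCs, and Fgf10 was not called in it.

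H3K4me1 at Fgf10 covered 21.9 kb in 7 peaks in ESCs, 7.27 kb in 3 peaks in D-EPSCs and 5.26 kb in 3 peaks in L-EPSCs, 3.01-fold and 4.16-fold fewer bases than in ESCs. The widest ESC peak, of 10466 bp, lay wholly within the 11483 bp acetylated peak. In its place D-EPSCs had a peak of 1254 bp at chr13:119494033-119495286, and L-EPSCs had a peak of 999 bp at chr13:119494176-119495174. The second EPSC peak lay over the coding start: it spanned 4278 bp for D-EPSCs, and 2613 bp for L-EPSCs, and covered the first exon of 1.01 kb completely, where ESCs had no H3K4me1 peak nearer than 1.15 kb upstream. The third EPSC peak, 1741 bp wide for D-EPSCs, and 1648 bp for L-EPSCs, overlapped the acetylated D-EPSC peak of the first intron. L-EPSCs thus kept H3K4me1 at this intronic place without a listed H3K27ac peak.

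**Figure D2:**
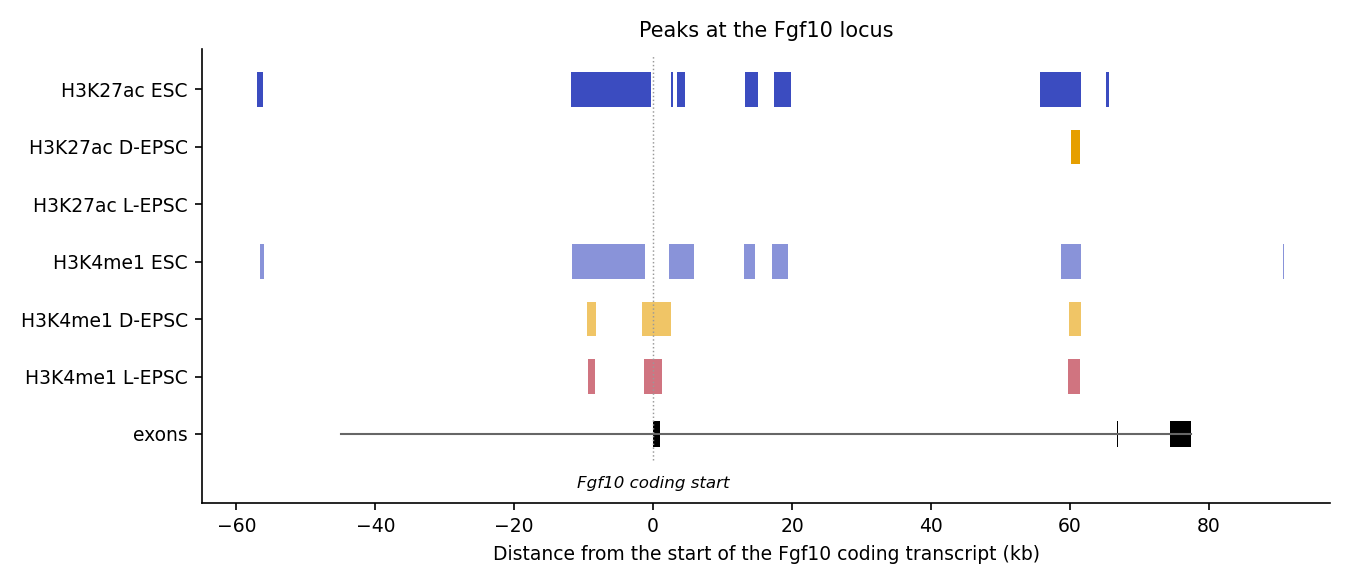
Peaks at Fgf10 in the 6 lists, 1 row per mark and state, drawn to scale against the distance in kb from the start of the coding transcript, with coding-transcript exons in black and the annotated gene as a grey line. The ESC rows hold 8 H3K27ac and 7 H3K4me1 peaks, and the EPSC rows hold 1 H3K27ac peak in D-EPSCs, none in L-EPSCs, and 3 H3K4me1 peaks each, 1 of them across the coding start.

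The bases acetylated in ESCs were then followed into the other lists. At Fgf10, 5.65% of them lay under H3K27ac in D-EPSCs and 0% in L-EPSCs, while the median over 12966 genes with at least 1 kb in ESCs was 29.6% and 20.3%. As few or fewer were found at 13.4% of these genes for the first value and 17.3% for the second. H3K4me1 covered 76.5% of the same bases in ESCs, close to the median of 75.9%, but 17.8% in D-EPSCs and 15.1% in L-EPSCs, where the medians were 67.6% and 62.8%. Values this low were found at 3.79% of genes in D-EPSCs and 3.32% in L-EPSCs. Among 1893 genes with at least 20 kb of H3K27ac in ESCs, 13 (0.687%) had no H3K27ac base in L-EPSCs, Fgf10 included. At most 10% of the ESC value was left in both EPSCs at 57 of them (3.01%). With at least 1 kb in ESCs, no base in L-EPSCs was listed at 1840 of 12966 genes (14.2%). Fgf10 was selected on this H3K27ac contrast, so its place among the few follows from that choice. The H3K4me1 shares were taken over the same H3K27ac bases and ranked among all these genes, so they are not independent of that choice. The bound of 20 kb takes no account of window length.

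Fibroblast feeder cells were a possible part of the ESC culture only, so 6 genes of fibroblasts were looked up beside Fgf10, picked after its values were known. The matrix and mesenchyme genes Postn, Prrx1 and Twist2 had no H3K27ac in any state, 3 of the 6, and Col1a2 had none in L-EPSCs. The summed H3K27ac over the 6 was 15.2 kb in ESCs, 3.65 kb in the D-EPSC list and 2.93 kb in the L-EPSC list. Of the ESC sum, 12.7 kb lay at Col1a1, with 2.19 kb at Col3a1 and 0.318 kb at Col1a2. The D-EPSC list held 1.03 kb at Col1a1, 1.93 kb at Col3a1 and 0.683 kb at Col1a2, the last above its ESC value. The L-EPSC list held 1.89 kb at Col1a1 and 1.03 kb at Col3a1. H3K4me1 at Col1a1 was 23.3 kb for ESCs against 10.8 kb (D-EPSC list) and 11.9 kb (L-EPSC list). Col1a1 was thus lower in both EPSCs for both marks, as Fgf10 was. Col3a1 and Postn also had fewer H3K4me1 bases in both, while Col1a2, Prrx1 and Twist2 had more. The part of feeder cells in the Fgf10 values was not tested.

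Fgf3, Fgf4 and Fgf15 lie in a row on chromosome 7 on the plus strand, and their windows are not independent. The windows of Fgf3 and Fgf4 share 23.1 kb and those of Fgf4 and Fgf15 share 8.71 kb. Over the joined stretch, chr7:152003988-152106858, H3K27ac covered 53.1 kb in the ESC list, with 22.1 kb for D-EPSCs and 18.96 kb for L-EPSCs. H3K4me1 over the stretch stood at 61.4 kb, 49.2 kb and 43.2 kb.

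Fgf4 (ENSMUSG00000050917.4, chr7:152047291-152051148) encodes the ligand that ESCs themselves produce. It had the most H3K27ac of the 6 ligands in every state, 31.3 kb in ESCs against 19.4 kb in D-EPSCs and 16.2 kb in the L-EPSC list, and was not lower by the 2-fold rule in either EPSC, with 1.61-fold and 1.93-fold fewer bases. With windows of 50 kb on each side it was lower in both, at 53.1 kb against 22.1 kb and 18.96 kb. Its promoter, chr7:152047041-152047290, is shown for comparison with that of Fgf10.
Fgf4 promoter: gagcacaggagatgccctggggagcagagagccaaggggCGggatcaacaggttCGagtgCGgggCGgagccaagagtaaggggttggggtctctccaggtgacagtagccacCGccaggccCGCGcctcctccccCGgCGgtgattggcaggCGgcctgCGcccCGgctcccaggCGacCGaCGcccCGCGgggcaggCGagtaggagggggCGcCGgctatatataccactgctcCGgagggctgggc
It holds 21 CpG at a GC content of 71.2%, more than the 8 CpG of the Fgf10 promoter. The same length before the coding start holds 30 CpG at Fgf8, 16 at Fgf3, 15 at Fgf15 and 4 at Fgf17. Fgf8, with the least H3K27ac of the 6 ligands in ESCs, thus had the most CpG.

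In ESCs a single H3K27ac peak of 24795 bp, chr7:152031121-152055915, ran from 16.2 kb before the Fgf4 start to 8.62 kb after it and took in the whole gene. In D-EPSCs and L-EPSCs the same stretch was broken up, with 8 peaks in the Fgf4 window of each, the widest of 7152 bp and 6764 bp. D-EPSCs had H3K27ac over 70.9% and L-EPSCs over 56.7% of the ESC peak. H3K27ac covered the first base of the coding transcript of Fgf4 in ESCs and in D-EPSCs, while in L-EPSCs the nearest peak began 175 bp after it. At none of the other 5 ligands did an H3K27ac peak cover that base in any state (21.5%, 24.4% and 17.4% of all genes in ESCs, D-EPSCs and L-EPSCs). H3K4me1 at Fgf4 was 26.6 kb, 24.5 kb and 22.8 kb, and covered the start in no state. In windows of 10 kb on each side the order turned, with 1.45 kb more than ESCs in D-EPSCs and 0.791 kb more in L-EPSCs.

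The known enhancer of Fgf4 lies in its 3′ untranslated region and binds SOX2 and OCT4 side by side. A composite element was therefore searched on both strands throughout the 6 windows, spelled CNTTGT for the SOX part, 1 or 4 bases of any kind, and ATGCNAA for the octamer part. The spacer of 4 bases was included because the Fgf4 enhancer is known to have it, so a match there was given in advance. The only match lay at chr7:152050299-152050315 on the plus strand, 3.01 kb after the Fgf4 start, in the 3′ untranslated region. It is shown with both parts in capitals and the spacer in lower case.
Fgf4 composite element: CTTTGTttggATGCTAA
These 17 bases lay under H3K27ac in ESCs and D-EPSCs and in a gap between H3K27ac peaks in L-EPSCs. H3K4me1 covered them in both EPSCs and not in ESCs. They lie within the Fgf3 window as well. Of all 500 bp tiles of H3K27ac peaks, 0.0562% held a match for ESCs, 0.0792% for D-EPSCs and 0.0731% for L-EPSCs. These shares are of tiles within peaks, while the search ran over whole windows, so they are not its background. No match was found at Fgf10, Fgf8, Fgf15 or Fgf17 for these letters, which were fitted to Fgf4.

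Fgf3 (ENSMUSG00000031074.8, chr7:152023988-152030341) encodes a ligand with a role in inner ear development. Its window held 30.7 kb of H3K27ac in ESCs, with 13.8 kb for D-EPSCs and 10.9 kb for L-EPSCs, and 31.7 kb, 20.8 kb and 21.4 kb of H3K4me1. These bases were unevenly placed. The 20 kb upstream of Fgf3 held 5 ESC peaks over 11.5 kb and no H3K27ac in either EPSC, as at the upstream stretch of Fgf10. H3K4me1 in those 20 kb was 16.4 kb in ESCs, 4.96 kb in the D-EPSC list and 5.58 kb in the L-EPSC list. No H3K27ac peak met the body of Fgf3 in any state. All H3K27ac of the Fgf3 window in EPSCs thus lay beyond the end of Fgf3, towards and over Fgf4, where the 16.9 kb between both genes held 16.2 kb, 11.4 kb and 8.16 kb.

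Fgf15 (ENSMUSG00000031073.5, chr7:152082437-152086858) encodes the mouse counterpart of human FGF19, a gut hormone that restrains bile acid synthesis in the adult. H3K27ac covered 11.7 kb in 9 peaks in ESCs, 2.69 kb in 2 peaks in D-EPSCs and 2.76 kb in 2 peaks in L-EPSCs. What both EPSCs kept lay within 1 ESC peak of 5212 bp that ended 4.76 kb before the Fgf15 start. D-EPSCs also had a peak of 536 bp in an intron of Fgf15 that neither ESCs nor L-EPSCs had. The 5 ESC peaks downstream of Fgf15, 3.52 kb in all, had no EPSC counterpart, and the neighbour Oraov1 lies on that side. H3K4me1 stood at 18.7 kb, 17.8 kb and 12.8 kb, and in windows of 10 kb D-EPSCs had 0.584 kb more than ESCs.

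**Figure D3:**
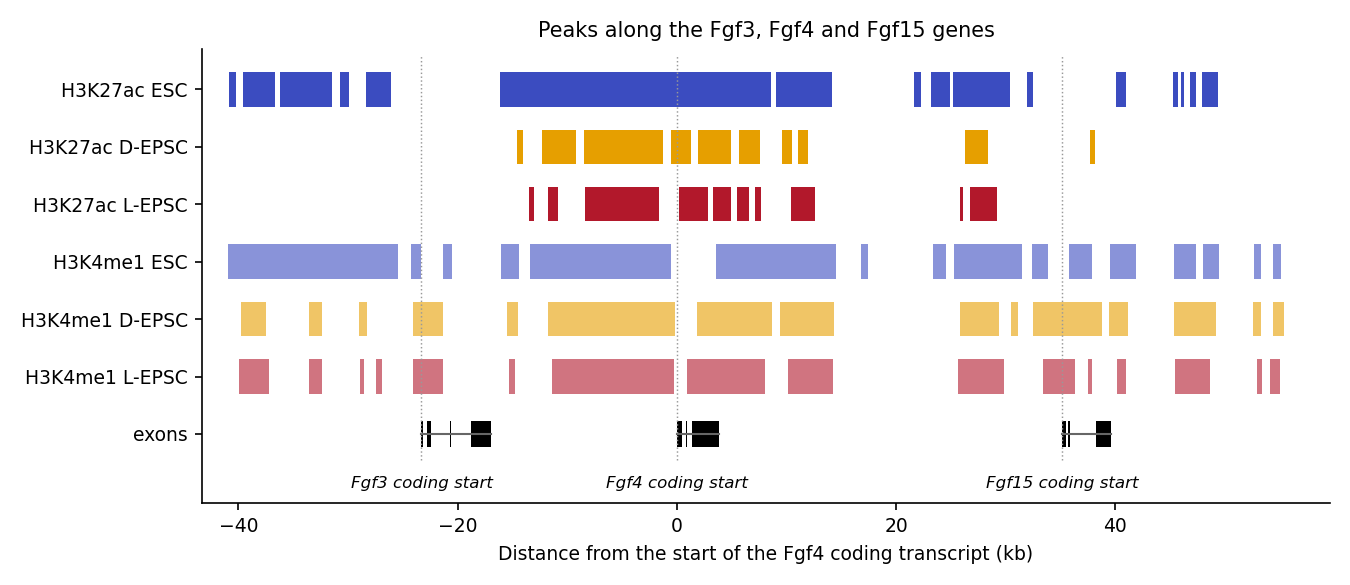
Peaks along Fgf3, Fgf4 and Fgf15 in the 6 lists, 1 row per mark and state, against the distance in kb from the start of the Fgf4 coding transcript, with exons in black. The ESC peak of 24795 bp across Fgf4 is split in both EPSCs, and the 5 ESC H3K27ac peaks upstream of Fgf3 have no EPSC counterpart while short H3K4me1 peaks remain there.

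Fgf17 and Fgf8 encode closely related ligands of the midbrain and hindbrain border, and FGF8 is also needed for cells to move through the primitive streak at gastrulation. Fgf17 (ENSMUSG00000022101.5, chr14:71036012-71042075, minus strand) had 16.4 kb of H3K27ac in ESCs, with 10.7 kb for D-EPSCs and 3.33 kb for L-EPSCs. It was the ligand at which D-EPSCs and L-EPSCs differed most in bases. Fgf8 (ENSMUSG00000025219.7, chr19:45811288-45817405, minus strand) had 5.65 kb, 1.83 kb and 0.345 kb. L-EPSCs had at least 2-fold fewer bases than D-EPSCs at Fgf17, Fgf8 and Fgf10 (33.0% of all genes). H3K4me1 was kept far more, at 27.7 kb, 30.1 kb and 24.96 kb for Fgf17 and 20.3 kb, 15.9 kb and 14.0 kb for Fgf8. In windows of 50 kb Fgf17 had fewer H3K4me1 bases in D-EPSCs than in ESCs, by -0.676 kb.

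Neighbouring genes share these windows: Epb4.9, Npm2 and Xpo7 at Fgf17, and Npm3 and Mgea5 at Fgf8. When only peaks nearer to the start of the ligand gene than to any other coding gene start were counted, Fgf17 held 0.636 kb of H3K27ac in ESCs and 0 in both EPSCs, and Fgf8 held 0.986 kb and 0 in both. Most H3K27ac in both windows therefore lay nearer to a neighbour. Within the Fgf8 gene span no H3K27ac peak was listed in any state. Within the Fgf17 span H3K27ac covered 4.38 kb, 1.17 kb and 0.584 kb, in each state by 1 peak that covered part or all of the last exon.

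H3K4me1 at the starts of the ligand genes followed another order. The first base of the coding transcript was covered in all 3 states at Fgf8 and Fgf17. At Fgf10, Fgf15 and Fgf3 it was covered in both EPSCs and not in ESCs, and at Fgf4 in no state. Shares of all genes were counted at annotated gene starts, and the annotated start of Fgf10, that of a noncoding transcript, was covered in no state. Annotated starts of the ligands were covered at 4 of 6 in D-EPSCs (26.2% of all genes), 4 of 6 in L-EPSCs (31.8%) and 2 of 6 in ESCs (11.4%). Coverage in both EPSCs without coverage in ESCs held for 2 of 6 annotated starts, those of Fgf15 and Fgf3 (14.6% of all genes).

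The acetylated bases of the other 5 ligands were kept to differing degrees. In D-EPSCs H3K27ac was kept over 62.0% of them at Fgf4, 59.7% at Fgf17, 44.8% at Fgf3, 24.5% at Fgf8 and 18.4% at Fgf15. In L-EPSCs the order was Fgf4 at 51.8%, Fgf3 at 35.3%, Fgf15 at 23.5%, Fgf17 at 18.0% and Fgf8 at 6.10%. Fgf10 was lowest in both. H3K4me1 covered 76.5% to 84.6% of the same bases in ESCs at all 6 ligands. In D-EPSCs it covered 56.2% to 98.3% of them at the other 5 ligands and in L-EPSCs 57.0% to 86.8%, against the 17.8% and 15.1% at Fgf10.

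**Figure D4:**
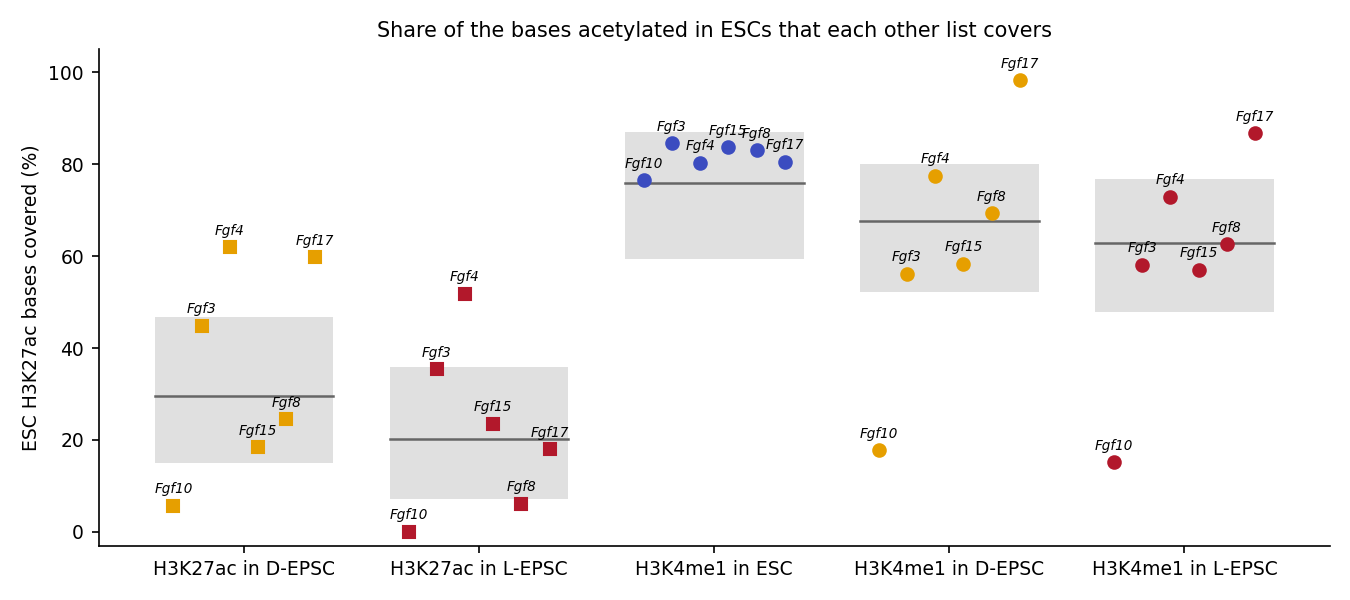
Percent of the bases under H3K27ac peaks in ESCs, in the window of each of 6 FGF ligands, that lie under the peaks of each other list, with the median (line) and quartiles (grey box) of 12966 genes. Fgf10 lies at 5.65% and 0% for H3K27ac and at 17.8% and 15.1% for H3K4me1 in D-EPSCs and L-EPSCs, below the lower quartile in all 4, and near the median for H3K4me1 in ESCs.

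The rest of the pathway was taken as a list of 34 genes: 16 further FGF genes, 5 receptors, 2 co-receptors and 11 feedback or target genes. Among the 16 further FGF genes, Fgf5, Fgf7, Fgf9, Fgf12, Fgf13 and Fgf16 had no H3K27ac in any state (28.4% of all genes). Fgf5 marks the primed epiblast, Fgf7 is a fibroblast ligand of the same receptor as FGF10, and Fgf12 and Fgf13 belong with Fgf11 and Fgf14 to the intracellular factors that are not secreted. Of those with at least 1 kb, 4 of 8 were 2-fold lower in D-EPSCs (61.6% of all genes) and 4 of 7 in L-EPSCs (79.6%). They were the same 4 genes: Fgf11 with 8.54 kb for ESCs, 3.27 kb for D-EPSCs and 3.54 kb for L-EPSCs, the metabolic hormone Fgf21 with 5.04 kb, 2.15 kb and 2.06 kb, Fgf22 with 5.71 kb, 0.966 kb and 0.878 kb, and the phosphate hormone Fgf23 with 4.61 kb in ESCs and none in either EPSC. Fgf2 was the only one 2-fold higher, at 0.479 kb in ESCs and 2.41 kb in D-EPSCs (4.66% of all genes). Fgf1 also ran against the 6 ligands, with 15.0 kb in ESCs against 28.2 kb in D-EPSCs and 27.5 kb in the L-EPSC list. Fgf2 and Fgf1 are named because of these values.

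H3K4me1 at the 16 further FGF genes had a median of 8.50 kb in ESCs, 9.65 kb in the D-EPSC list and 8.81 kb in the L-EPSC list. At the 6 ligands the medians were larger, at 24.3 kb, 19.3 kb and 17.7 kb, and lower in both EPSCs than in ESCs. Of the 16, 4 were 2-fold higher in H3K4me1 in D-EPSCs (8.53% of all genes) and 4 in L-EPSCs (9.27%). At least 2-fold lower were 1 in D-EPSCs (4.52% of all genes) and 0 in L-EPSCs (9.12%).

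All 3 receptor genes with at least 1 kb of H3K27ac were 2-fold lower in both EPSCs (57.5% of all genes). Fgfr1 had 32.2 kb, 15.5 kb and 13.8 kb, Fgfr4 had 11.4 kb, 5.17 kb and 3.25 kb, and Fgfr2, whose splice form in epithelia binds FGF10, had 223.1 kb, 59.7 kb and 57.0 kb. The window of Fgfr2 spans 3049 kb in this annotation and takes in other genes, so its values are not those of the receptor locus alone. The paper names Fgfr2 among its signature genes of EPSCs, picked through differential marks, open chromatin and higher RNA. Its marks were compared through reads per sample, which is another measure than covered bases. Fgfr3 had no H3K27ac in any state, and Fgfrl1 stayed under 1 kb. H3K4me1 was not 2-fold changed at any of the 5 receptor genes, as at most genes. Of all genes, 4.52% were 2-fold lower and 8.53% higher in D-EPSCs, and 9.12% and 9.27% in L-EPSCs. Of the Klotho co-receptor genes, Klb was 2-fold lower in L-EPSCs and not in D-EPSCs, and Kl stayed under 1 kb.

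Of 10 feedback and target genes with at least 1 kb of H3K27ac, 4 were 2-fold lower in D-EPSCs and 9 in L-EPSCs, against 61.6% and 79.6% of all genes. The phosphatase gene Dusp4 was 2-fold higher in D-EPSCs, with 3.14 kb against 1.31 kb in ESCs (4.66% of all genes), and had none in L-EPSCs. Lower in both were the Sprouty gene Spry4 with 29.996 kb for ESCs, 6.05 kb for D-EPSCs and 1.71 kb for L-EPSCs, Spred2 with 75.7 kb, 29.8 kb and 27.3 kb, the ERK phosphatase gene Dusp6 with 7.47 kb, 3.46 kb and 3.36 kb, and the receptor inhibitor gene Il17rd with 48.8 kb, 19.4 kb and 4.43 kb. Etv5, an ETS target of the pathway, was the only one not 2-fold lower in L-EPSCs and is named for that, with 54.3 kb, 45.2 kb and 36.7 kb. Whether the EPSCs differ at these genes was not tested, with 1 list each. Dusp6, lower here in covered bases, is named by the paper among the signature genes of EPSCs. Those were picked through reads per sample, open chromatin and higher RNA, so the values here do not show a loss of signal at Dusp6. Of the 6 ligands, the paper names Fgf10 and Fgf3 among its signature genes of ESCs, picked in the same way.

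**Figure D5:**
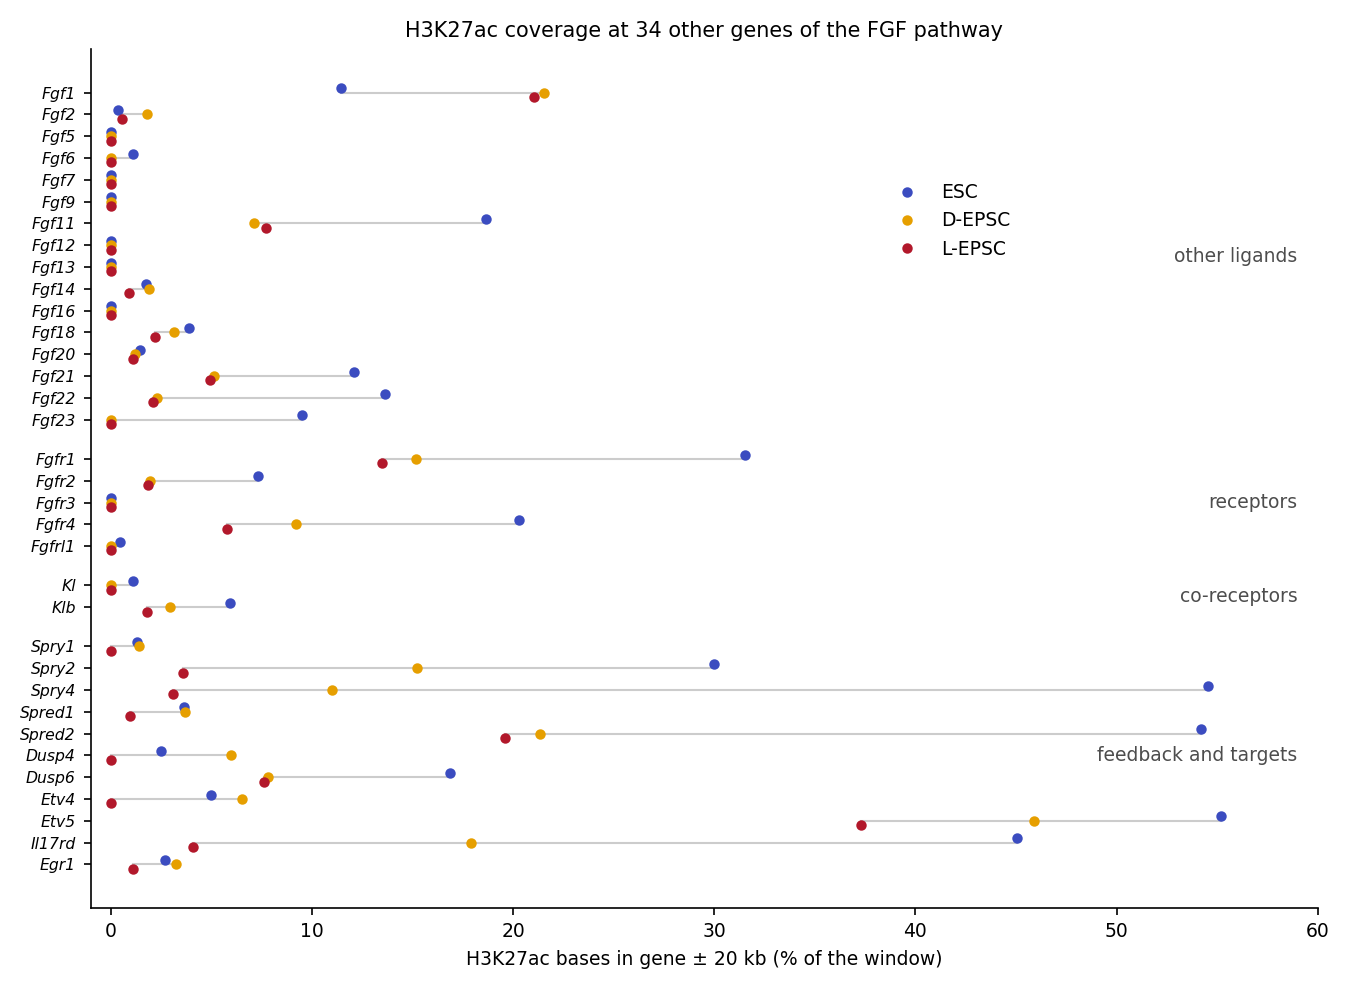
H3K27ac coverage of 34 further FGF pathway genes as a percent of each gene's window (span widened by 20 kb on each side), with 1 point per cell state and 1 peak list behind each point, and points of a gene set slightly apart in height. ESC points lie to the right of both EPSC points at most genes with H3K27ac, Fgf1 has both EPSC points to the right, and 6 further FGF genes and Fgfr3 lie at 0 in every state.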

How the data were processed

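ChIP-seq reads were aligned by the authors to mm9 with bowtie2 (v2.3.5), sorted with SAMtools (v1.10) and used to call broad peaks with MACS against input. The deposited lists hold positions only, in bp, with no count, score, signal or p-value. Call thresholds and any pooling of replicates are not given in the sources used here, and both affect list length, as does read depth, which is unknown. The authors compared marks through reads per sample, which peak lists do not allow.

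The members and the gene lists were chosen with earlier results of these data known. Other genes whose spans meet the windows of the ligands were named without values. Values with names were given for the 6 ligands, for pathway genes 2-fold lower or higher in H3K27ac in both EPSCs or without it in any state, and for the 3 genes most like Fgf10. Outside this rule, Fgf1, Fgf2, Fgf14, Klb, Kl, Fgfrl1, Spry1, Spry2, Spred1, Dusp4, Etv4, Etv5 and Egr1, and the H3K4me1 values of Fgf11 and Fgfr4, were named after their values were seen. Covered bases were counted in gene spans (GENCODE M1, chromosomes 1 to 19 and X) widened by 20 kb. Of duplicated symbols, the longest span was used. No test was run. The sequence under 1 peak is not reported here. Code was tested on simulated data: 200 random interval sets and 2000 gene windows gave 0 errors. Alternatives were windows of 10 or 50 kb or around the annotated start, peaks of at least 500 bp, lists of equal number or equal bases, gaps of up to 1 kb joined, and peaks nearest to the start. A window around the coding start was added after seeing the data, as were the marker genes. Python 3.11.15, numpy 2.4.6, pandas 2.3.3 and matplotlib 3.10.9 were used.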

Additional observations from a re-analysis of the deposited data

Results flagged for a closer look

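At some genes D-EPSCs had more covered bases than ESCs while L-EPSCs had fewer, and the difference between the EPSCs was not tested, since each value is 1 peak list. Of the 6 ligands only Fgf17 had this order, for H3K4me1: D-EPSCs stood 2.40 kb above ESCs (30.1 against 27.7 kb) and L-EPSCs 2.76 kb below (24.96 kb), an order found at 11.8% of all genes. H3K4me1 had it at 6 of the 34 pathway genes too, the widest apart at Spred1 with 16.5 kb for ESCs, 28.7 kb for D-EPSCs and 8.55 kb for L-EPSCs. The others were Fgf11 (22.9, 23.9 and 18.0 kb), Fgfr4 (16.1, 18.1 and 12.1 kb), Spry1 (10.3, 11.5 and 9.85 kb), Spry2 (14.9, 15.6 and 11.1 kb) and Etv5 (69.5, 72.3 and 66.4 kb), each in the same order of states. For H3K27ac the order was found at 5.43% of all genes and at 6 of the 34 pathway genes, of which Spry1 stayed under 1 kb (0.593 kb for ESCs, 0.622 kb for D-EPSCs and no peak for L-EPSCs). Fgf14, for an intracellular factor, stood 0.891 kb above ESCs in D-EPSCs, with 6.78 kb left of 13.0 kb in L-EPSCs. Dusp4, for a phosphatase that acts on ERK, stood 1.83 kb above, and L-EPSCs had no peak. Etv4, an ETS target of the pathway, stood 0.884 kb above, and L-EPSCs again had no peak. The early response gene Egr1 stood 0.255 kb above, with 0.491 kb in L-EPSCs against 1.18 kb in ESCs. Spred1 stood 0.054 kb above in H3K27ac, with 0.965 kb in L-EPSCs against 3.69 kb in ESCs. D-EPSC medium lacked PD0325901, which the other media held, and the part of any component in these values was not tested.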

How the results depend on the processing

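No paired analysis was possible because each state and mark has 1 peak list in which the samples cannot be separated, so no replicate could be left out either. Over 9 alternatives, 106 of 108 H3K27ac differences and 102 of 108 H3K4me1 differences of the 6 ligands kept their direction. The count of ligands lower in H3K27ac in both EPSCs moved from 4 (57.5% of all genes) to 1, Fgf10, with equal covered bases (10.1%). Fgf8 then had 0.345 kb more in L-EPSCs than the 0 kb of ESCs, its only reversal among these values. With windows of 50 kb the count stayed at 4 (59.1% of all genes), but Fgf4 entered and Fgf15 left. It was 3 around the annotated start, without Fgf10 (56.3% of all genes). Without Fgf8 it was 3 with equal numbers of peaks (44.0%) or peaks nearest to the start (57.7%). Equal covered bases left 3725 ESC peaks against 26966 in L-EPSCs. With windows of 10 kb, 3 ligands had fewer H3K4me1 bases in D-EPSCs in place of 5, and the share of all genes was not counted for that setting. Other H3K4me1 differences from ESCs that changed sign were at Fgf4 (1.45 kb for D-EPSCs and 0.791 kb for L-EPSCs) and Fgf15 (0.584 kb for D-EPSCs) with 10 kb, at Fgf15 (1.97 kb) and Fgf17 (-0.676 kb) with 50 kb, and at Fgf15 (3.12 kb) with equal bases, and the cause was not tested. The percent of ESC H3K27ac bases kept at Fgf10 in D-EPSCs was 6.04 with equal numbers of peaks, 7.91 with equal bases, and 0 within 20 kb of either the annotated or the coding start. Around the coding start Fgf10 was called lower in both marks, and around the annotated start in neither. With peaks nearest to the start, Fgf3 joined Fgf10 in H3K4me1 (5.43% of all genes).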

Other observations

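The coding genes whose pattern over the 6 lists was most like that of Fgf10 were Gm221, Spink4 and Cd180, by Euclidean distance over log2 (covered kb + 1) in windows of the same kind, at 0.884, 0.933 and 0.965. Gm221 had 21.3 kb of H3K27ac in ESCs, 1.44 kb in D-EPSCs and none in L-EPSCs, and kept more H3K4me1 than Fgf10, at 17.8 kb, 10.3 kb and 9.02 kb. Spink4 had 17.2 kb, 1.90 kb and 0.254 kb of H3K27ac, and Cd180 had 15.3 kb, 0.848 kb and none. H3K4me1 at Cd180 was 26.4 kb, 8.69 kb and 7.99 kb, the nearest of the 3 to the steep order seen at Fgf10. Cd180 encodes a surface protein of B cells. The points share their lists, so the likeness is a description.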
